A study of Mus musculus with 12 samples.

Results

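Trim41, Klhl26, Wdr48 and Rnf157 were the 4 genes of the ubiquitin system described here, followed through the methylated cytosines that RNA bisulfite sequencing lists in their mRNAs in cultured adult mouse neural stem cells. The genes and sites were selected on measured values of these same libraries. A cytosine was called a site when at least 20 reads covered it, at least 6 of them were unconverted and the level was at least 10% in both replicates of at least 1 condition. The rule gave 5 sites in the 4 genes, of 6462 sites called in the series and 2080 genes with a called site. The levels that chose the sites are therefore a description, and the sites being methylated at all is no finding.

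Ubiquitin is attached to proteins by a relay of E1, E2 and E3 enzymes, and the E3 ligase decides which protein is marked. Trim41 and Rnf157 encode RING ligases, the first of them of the TRIM family. Klhl26 encodes a Kelch and BTB domain protein, a class that presents substrates to cullin 3 ligases. Wdr48, also called UAF1, encodes the WD repeat partner that activates the deubiquitinases Usp1, Usp12 and Usp46, which take ubiquitin off again. In mRNA, 5-methylcytosine is placed chiefly by NSUN2, known for cytosines followed by a G-rich stretch, and by NSUN6, known for the CTCCA motif. Bisulfite turns unmethylated cytosine into a base read as T, so the level is the share of reads that still show C.

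The cells were neural stem cells from the subventricular zone of wild-type male C57BL/6 mice, aged 6 to 8 weeks, and they were grown for 4 days in 1.5 µM (LF), 10 µM (MF) or 80 µM (HF) folic acid. Total RNA gave LF, MF and HF, and RNA from pooled gradient fractions with more than 3 ribosomes gave pLF, pMF and pHF, with 2 biological replicates in each of the 6 groups and 12 libraries in all. Before fractionation, per the paper's methods, cells were treated with cycloheximide and the lysate was cleared by centrifugation, steps not described for total RNA. All RNA went through repeated poly(A) selection. What was compared is whether the level of a site, or the amount of its mRNA, differs with folate or between polysome and total RNA.

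Each library listed between 779105 and 2043837 cytosines, with a coverage summed over them of 1186213013 to 2857966129. A position is listed only with at least 10 reads and at least 1 unconverted read. The unconverted share over listed cytosines below 5% was 0.128% to 0.193%. The HF libraries of total RNA stood apart, with 3167 called sites against 1795 in LF and 1999 in MF, and they are written as the libraries labelled HF. pHF replicate 2 also stood apart, with 38353 cytosines above a level of 0.9 against at most 3465 in any other library. Of 8 neural stem cell markers, 6 were covered in all 12 libraries, Nes, Vim, Fabp7, Slc1a3 and Hes5 among them. They summed to 198 to 313 in total and 263 to 316 in polysome RNA, in the measure given below for neurons. Egfr was listed in every library but in no window common to all 12. Sox2 could not be read, because its positions carry the name of the overlapping Sox2ot. The neuronal markers covered throughout were 2 of 6, at 11.4 to 14.1 in total and 5.47 to 7.94 in polysome RNA, as summed coverage per 1000000 of the window coverage described further on. Of 5 oligodendrocyte and 5 microglial markers, 1 each was covered throughout, Olig1 at 18.7 to 45.1 in total and 26.0 to 45.7 in polysome RNA and Cx3cr1 at 1.95 to 3.08 and 1.07 to 2.2. Of 3 astrocyte markers Aldh1l1 was, at 2.45 to 5.0 and 1.3 to 2.37. Mog, Sox10, Aif1 and Csf1r were listed in no library, nor were Cldn5 and Cdh5 of the endothelial list. In bulk RNA, fewer cells of a type and less RNA per cell cannot be told apart.

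The sites are shown with the 10 bases on either side, read 5′ to 3′ on the strand of the mRNA in the mouse genome mm10, with the site in capitals. The first 4 were called in 5 or 6 of the 6 conditions, and the last only in the libraries labelled HF.
Trim41 5′UTR site: gcacggagaaCagggcgctgc
Klhl26 coding site: tggcctcctgCagggcctggc
Wdr48 3′UTR site: cgtggacctgCaggctgccac
Rnf157 coding site: gcccctcaagCagaagcaagt
Wdr48 coding site: ctttagggggCgctagtatta

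The Trim41 site lies at chr11:48817281 on the minus strand, in exon 1 of 6 of transcript ENSMUST00000047145.13. It is base 73 of the mRNA and 626 bases before the start codon. The Klhl26 site lies at chr8:70455581 on the minus strand, in exon 2 of 3, as the first base of codon 42 of 607. Of the 4 other annotated Klhl26 isoforms, 2 also hold the base in the coding sequence, 1 in an intron and 1 in the 5′UTR. The Wdr48 3′UTR site lies at chr9:119925427 on the plus strand, in exon 19 of 19, 623 bases after the stop codon. The Rnf157 site lies at chr11:116358680 on the minus strand, in exon 8 of 19, as the first base of codon 237 of 682. It is 11 bases before the end of its exon. The Wdr48 coding site lies at chr9:119913632 on the plus strand, in exon 11 of 19, as the third base of codon 360. Only 4 exonic bases come before it, so the first 6 bases printed for it belong to the preceding intron.

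Trim41 carried the most methylated of these cytosines. In total RNA the level was 60% and 58.3% (LF), 64.7% and 47.1% (MF), and 45% and 42.4% (labelled HF). In polysome RNA it was 63.5% and 64.2% (pLF), 62.7% and 60.5% (pMF), and 65.4% and 79.2% (pHF). The 2 fractions overlapped through the higher MF replicate. Coverage was 17 to 100 reads, and both MF libraries had 17, so the site missed the coverage minimum there. With a minimum of 10 it could be tested against MF and was not called, with LF 3.21 points higher, the libraries labelled HF at -12.2 points and pMF 5.6 points above MF (Fisher's exact test adjusted p = 1, 0.214 and 0.69).

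The Klhl26 site had lower levels than Trim41 and a wide spread in polysome RNA. In total RNA the level was 27.0% and 25.7% (LF), 16.7% and 22.8% (MF), and 30.4% and 22.7% (labelled HF). In polysome RNA it was 36.2% and 43.8% (pLF), 23.5% and 47.4% (pMF), and 48.7% and 53.5% (pHF). Every polysome library but pMF replicate 1 was above every total library. Coverage was 76 to 342 reads.

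The Wdr48 3′UTR site separated the fractions in full. In total RNA the level was 33.1% and 30.4% (LF), 18.4% and 19.4% (MF), and 10.3% and 10.8% (labelled HF). In polysome RNA it was 36.8% and 44.3% (pLF), 42.5% and 40.0% (pMF), and 35.5% and 34.2% (pHF). The lowest polysome value, 34.2%, was above the highest total value, 33.1%. Within total RNA the LF libraries were the highest and those labelled HF the lowest. Coverage was 110 to 325 reads.

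The Rnf157 site differed in the order of its folate groups. In total RNA the level was 31.6% and 30.1% (LF), 41.6% and 40.3% (MF), and 31.2% and 42.5% (labelled HF). In polysome RNA it was 47.3% and 57.0% (pLF), 51.8% and 46.0% (pMF), and 50% and 33.3% (pHF). pHF replicate 2 was the lowest polysome library and the only one inside the range of total RNA. Coverage was 139 to 382 reads.

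**Figure D1:**
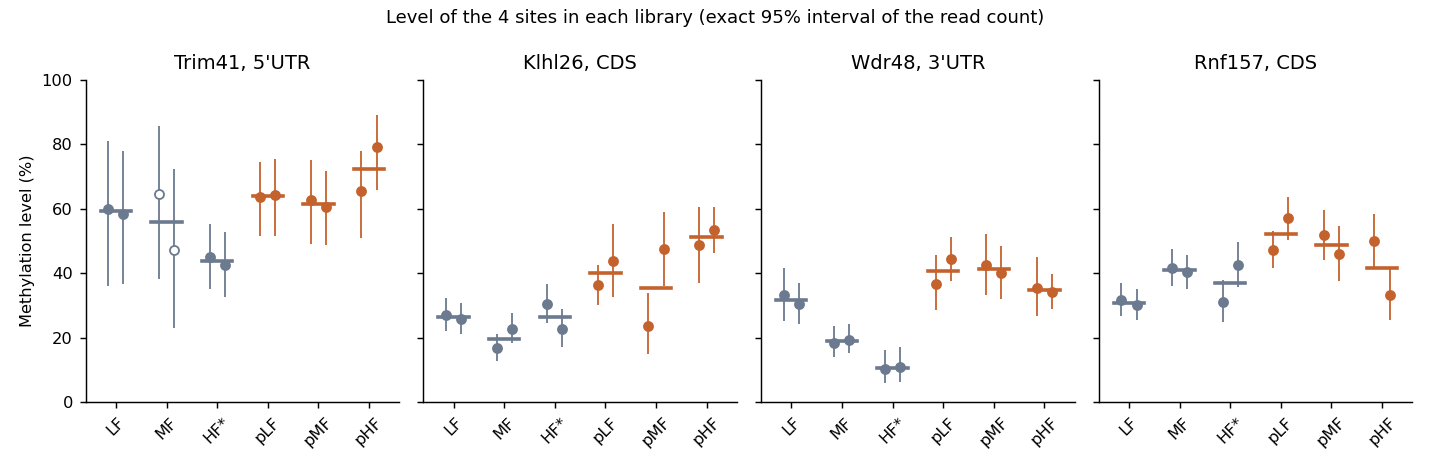
Methylation level (%) of the 4 sites in each library, by group. Grey points are total RNA and orange points polysome RNA, bars on points are exact 95% binomial intervals that cover counting error only, horizontal bars are group means, open points had fewer than 20 reads, and HF* is the group labelled HF. The Wdr48 points of the 6 polysome libraries lie between 34.2% and 44.3%, above all 6 total libraries.

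Trim41 was the highest of the 4 sites in 11 of 12 libraries, the exception being the library labelled HF replicate 2, where Rnf157 (42.5%) and Trim41 (42.4%) were level. Rnf157 came second in 7 libraries. Klhl26 and Wdr48 shared the lower places, Klhl26 the lowest in 6 libraries and Wdr48 in 5, and their ranges overlapped in both fractions. For comparison, isolated sites are called sites with no other called site within 25 bases. Over the 198 of them with at least 20 reads in all 12 libraries, the median of the mean level was 8.07% in total and 13.2% in polysome RNA. The mean of each of the 4 sites was above these. The 198 needed a call in only 1 condition and the 4 sites had calls in 5 or 6, so this order is no test. Trim41 was not among the 198.

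Polysome RNA was more methylated than total RNA at Wdr48, Klhl26 and Rnf157 over the 3 folate doses. Levels were compared as the log2 odds of an unconverted read in each library, in limma over 352 sites with at least 20 reads in all 12 libraries and with Benjamini-Hochberg adjustment over them. Wdr48 was higher in polysome RNA by 1.42 ± 0.155 (SE) in log2 odds, an odds ratio of 2.68 (limma adjusted p = 4.06e-05). Klhl26 was higher by 1.18 ± 0.281, an odds ratio of 2.27 (limma adjusted p = 0.00405). Rnf157 was higher by 0.679 ± 0.233, an odds ratio of 1.6 (limma adjusted p = 0.0243). Trim41 entered only when the coverage minimum was 10, and its difference was then 0.798 ± 0.238 (limma adjusted p = 0.0128). By single dose the Trim41 difference was uneven, at 0.297 in log2 odds between pLF and LF and 1.75 between pHF and the libraries labelled HF. In medium folate it was 5.6 percentage points and was not called.

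A rise in polysome RNA was common among the sites tested: 64.8% of the 352 were called higher there. Of the 198 isolated ones 58.1% were, in a run adjusted over them alone, as for every isolated share below. The median difference was 0.969 over all and 0.783 over isolated sites. Rnf157 was thus below both medians, and Wdr48 and Klhl26 above them. A call in any 1 condition admitted a site to this set, the libraries labelled HF included. The 6 polysome levels were all above the 6 total levels at 19.0% of the 352 sites, Wdr48 being the member among them. Without the libraries labelled HF and pHF, Wdr48 was still called (1.06, limma adjusted p = 0.00415) and so was Rnf157 (0.874, limma adjusted p = 0.0137), while Klhl26 was not (1.01, limma adjusted p = 0.0527). Rnf157 also missed the threshold on leaving out LF replicate 2, MF replicate 2, the library labelled HF replicate 1, pLF replicate 2, pMF replicate 1 or pHF replicate 1, with limma adjusted p up to 0.0632.

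**Figure D2:**
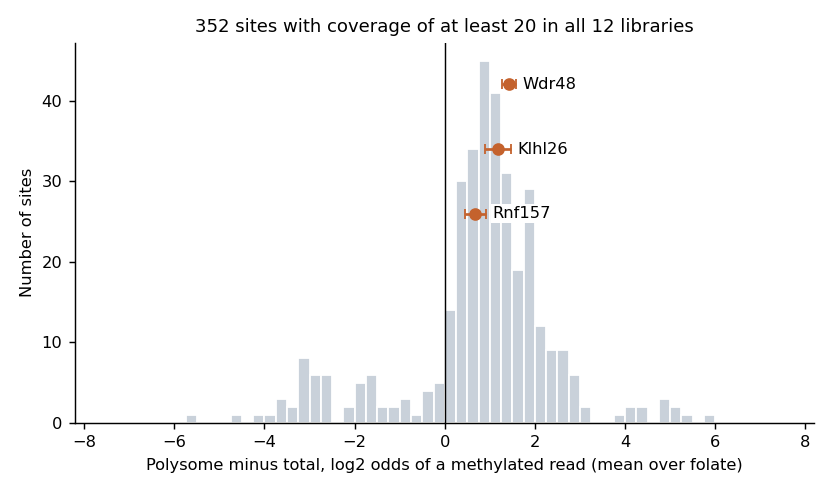
Difference between polysome and total RNA at 352 sites, as log2 odds of a methylated read averaged over the 3 folate doses (horizontal axis), with the number of sites in each bin (vertical axis); orange points with bars are 3 of the described sites ± SE, at an arbitrary height. Wdr48 at 1.42 and Klhl26 at 1.18 lie right of the median of all sites, 0.969, and Rnf157 at 0.679 lies left of it.

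Within single folate doses the reads of the 2 replicates were pooled and compared by Fisher's exact test, adjusted over every site of the comparison. Shares called among isolated sites were adjusted over the isolated sites alone. The pooled reads carry no replicate error, so the limma value, which does, is given beside it. Reads amplified by PCR, with no molecular identifier, can be copies of one molecule, so these intervals and tests cover counting error only.

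In low folate, Rnf157 showed the largest of the members' fraction differences. Its pooled level was 51.3% in pLF and 30.8% in LF, 20.5 percentage points higher (95% interval 15.1 to 25.9, Fisher's exact test adjusted p = 1.11e-12, limma adjusted p = 0.0244). Klhl26 was higher by 11.8 points (interval 5.5 to 18.1, Fisher's exact test adjusted p = 0.000435) and Wdr48 by 9.88 points (interval 2.79 to 17.0, Fisher's exact test adjusted p = 0.013). With replicate error, limma called neither (adjusted p = 0.0725 for Klhl26 and 0.237 for Wdr48), and a beta-binomial test called Klhl26 (adjusted p = 0.0144) but not Wdr48 (adjusted p = 0.0946). The Wdr48 difference was 5.32 points without pLF replicate 2 (Fisher's exact test adjusted p = 0.381) and 8.24 without LF replicate 2 (Fisher's exact test adjusted p = 0.146). Trim41 differed by 4.74 points, with an interval of -11.8 to 21.3 (Fisher's exact test adjusted p = 0.657). Of 480 sites tested, 60.4% were called higher in pLF, and of the isolated ones 73.9%.

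In medium folate, Wdr48 showed the largest fraction difference. Its pooled level was 41.1% in pMF and 18.9% in MF, 22.1 points higher (interval 15.4 to 28.9, Fisher's exact test adjusted p = 1.54e-10, limma adjusted p = 0.016). Klhl26 was higher by 15.1 points (Fisher's exact test adjusted p = 0.000215, limma adjusted p = 0.207, beta-binomial adjusted p = 0.00476). Its pMF replicates lay 23.9 points apart, and without pMF replicate 2 the difference was 3.71 points (Fisher's exact test adjusted p = 0.592). Rnf157 was higher by 8.31 points (Fisher's exact test adjusted p = 0.0349, limma adjusted p = 0.247), a call lost without pMF replicate 1, MF replicate 1 or MF replicate 2. Of 403 sites, 44.7% were called higher in pMF, and of the 138 isolated ones 73.9%.

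In high folate, Trim41, Klhl26 and Wdr48 were higher in polysome RNA by similar amounts. The differences were 28.7 points for Trim41 (interval 17.7 to 39.6, Fisher's exact test adjusted p = 3.62e-06, limma adjusted p = 0.0419), 25.3 for Klhl26 (interval 18.1 to 32.5, Fisher's exact test adjusted p = 2.24e-11, limma adjusted p = 0.0388) and 23.9 for Wdr48 (interval 18.3 to 29.6, Fisher's exact test adjusted p = 3.91e-14, limma adjusted p = 0.00847). With replicate number added as a block, limma called neither Trim41 (limma adjusted p = 0.0591) nor Klhl26 (limma adjusted p = 0.0772). Without pHF replicate 2 all 3 were still higher, at 21.7, 21.8 and 24.9 points. Rnf157 differed by 4.97 points (interval -2.39 to 12.3, Fisher's exact test adjusted p = 0.289), a value that moved with each library left out. It was 13.3 points without pHF replicate 2 (Fisher's exact test adjusted p = 0.00976) and 10.5 without the library labelled HF replicate 2 (Fisher's exact test adjusted p = 0.0303), but -3.4 without pHF replicate 1 and -0.816 without the library labelled HF replicate 1. Here 33.4% of 649 sites were called higher in pHF and almost as many lower, 217 against 207. Of the 316 isolated ones 29.7% were called higher and 81.3% in all, with a median difference of -7.87 points. Sites called only in the libraries labelled HF were in this table because they were high there, so its shares are no neutral background. The comparison rests on the libraries labelled HF, whose part in these differences was not tested.

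Whether the fraction difference itself depended on folate was tested as an interaction in the same limma fit. Between LF and MF no site passed, with 0 of 352 called. Wdr48 came nearest among the members, with a fraction difference in low folate that differed from that in medium folate by -1.04 in log2 odds (limma adjusted p = 0.698). Rnf157 and Klhl26 had limma adjusted p = 0.957 each. The larger step of Rnf157 in low folate and of Wdr48 in medium folate is therefore not shown to be a difference between doses. Against the libraries labelled HF, 180 of 352 sites passed and no member did, with limma adjusted p of 0.266 (Wdr48), 0.677 (Klhl26) and 0.839 (Rnf157).

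In total RNA, Wdr48 and Rnf157 were among the few sites called between low and medium folate, in opposite directions. Wdr48 was 12.5 points higher in LF (interval 6.74 to 18.3, Fisher's exact test adjusted p = 0.00659) and Rnf157 was 10.1 points higher in MF (interval of LF minus MF, -15.1 to -5.02, Fisher's exact test adjusted p = 0.0224). Klhl26 differed by 6.48 points, higher in LF (interval 1.95 to 11, Fisher's exact test adjusted p = 0.0989). The Klhl26 difference was 3.49 points without MF replicate 1 and 9.58 without MF replicate 2. Only 0.76% of 1842 sites were called, 14 in all. Adjusted over the 97 isolated sites alone, 8 of them were called, 8.25%. With replicate error no site of the table was called, by limma (adjusted p = 0.519 for Wdr48 and 0.608 for Rnf157) or by a beta-binomial test (adjusted p = 0.251 and 0.268), while 403 sites had an unadjusted Fisher p under 0.05. The Rnf157 call was lost on leaving out any 1 of the 4 libraries, and the Wdr48 call on leaving out LF replicate 1 or MF replicate 1.

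In the libraries labelled HF, Wdr48 was lower than in MF, by a difference of -8.37 points (interval -13.0 to -3.69, Fisher's exact test adjusted p = 0.00119, limma adjusted p = 0.0303). With replicate number added as a block, limma did not call Wdr48 (limma adjusted p = 0.081). Its direction was opposite to most of the table, where 943 of 1138 sites were called higher in the libraries labelled HF and 94.3% were called in all, with a median difference of 18.1 points. A site entered the table when called in either group. Sites called only in the libraries labelled HF were thus in it because they were high there. Klhl26 was 7.05 points higher (Fisher's exact test adjusted p = 0.00638, limma adjusted p = 0.239, beta-binomial adjusted p = 0.0484), with overlapping replicates, and 2.88 points higher without the library labelled HF replicate 1 (Fisher's exact test adjusted p = 0.391) or 4.07 without MF replicate 1 (Fisher's exact test adjusted p = 0.226). The Rnf157 difference was -4.14 points (interval -10.1 to 1.78, Fisher's exact test adjusted p = 0.188). Its replicates labelled HF were 11.3 points apart, and the difference was -9.71 without replicate 2 of them (Fisher's exact test adjusted p = 0.0133) and 1.64 without replicate 1.

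In polysome RNA no member was called between low and medium folate. The differences were 2.35 points for Trim41 (interval -9.07 to 13.8), 3.11 for Klhl26 (-5.92 to 12.1), 0.265 for Wdr48 (-7.63 to 8.16) and 2.13 for Rnf157 (-4.89 to 9.14), none called by Fisher's exact test, in a table where 9.68% of 1074 sites and 17.9% of the 168 isolated ones were. Between high and medium folate, Klhl26 was 17.2 points higher in pHF (interval 7.81 to 26.6, Fisher's exact test adjusted p = 0.0121, limma adjusted p = 0.96). That call was lost without pHF replicate 2 (13.7 points, Fisher's exact test adjusted p = 0.338) or pMF replicate 1 (4.74 points, Fisher's exact test adjusted p = 1). Trim41 differed by 10.9 points (interval -0.955 to 22.8), Wdr48 by -6.58 (-14.0 to 0.855) and Rnf157 by -7.49 (-15.5 to 0.527), and none of the 3 was called. The Trim41 difference was 3.9 points without pHF replicate 2 and 17.8 without pHF replicate 1. The Rnf157 difference was -15.9 without pHF replicate 1 (Fisher's exact test adjusted p = 0.0265) and 0.814 without pHF replicate 2. Of 703 sites, 9.1% were called there, and of the 170 isolated ones 25.3%.

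The 4 sites called in most conditions stood alone among converted cytosines. Within 25 bases on the same strand the genome holds 16 other cytosines at Trim41, 20 at Klhl26, 18 at the Wdr48 3′UTR site and 11 at Rnf157. None was called in any library. The highest level any of them reached was 4.41% at Trim41, 2.3% at Klhl26, 3.21% at Wdr48 and 2.6% at Rnf157, each well under the lowest level of the site beside it. At the Wdr48 coding site the 11 other cytosines nearby reached 5.0% in the library labelled HF replicate 2, where the site was at 25%. Outside the libraries labelled HF they reached up to 3.23%, and the site at most 2.7% with a single unconverted read. In the rest of the gene, the unconverted share of listed cytosines was 0.144% to 0.583% in Trim41, 0.365% to 1.16% in Klhl26, 0.177% to 0.896% in Wdr48 and 0.327% to 1.13% in Rnf157. These shares leave out positions with no unconverted read, so they lie above the true remainder. The 25-base stretches were taken from the genome, so those at Rnf157 and the Wdr48 coding site run partly into an intron.

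Outside the sites, 10 further positions in the 4 genes met the limits in a single library or in libraries of different groups. The nearest to the rule was Rnf157 chr11:116359297, listed in all 12 libraries and called in pLF replicate 2 and pMF replicate 1, where it reached 12.6% of 183 reads, and at 0.862% in its lowest library. Just inside the rule was the Wdr48 3′UTR site in the libraries labelled HF, at 10.3% and 10.8%.

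**Figure D3:**
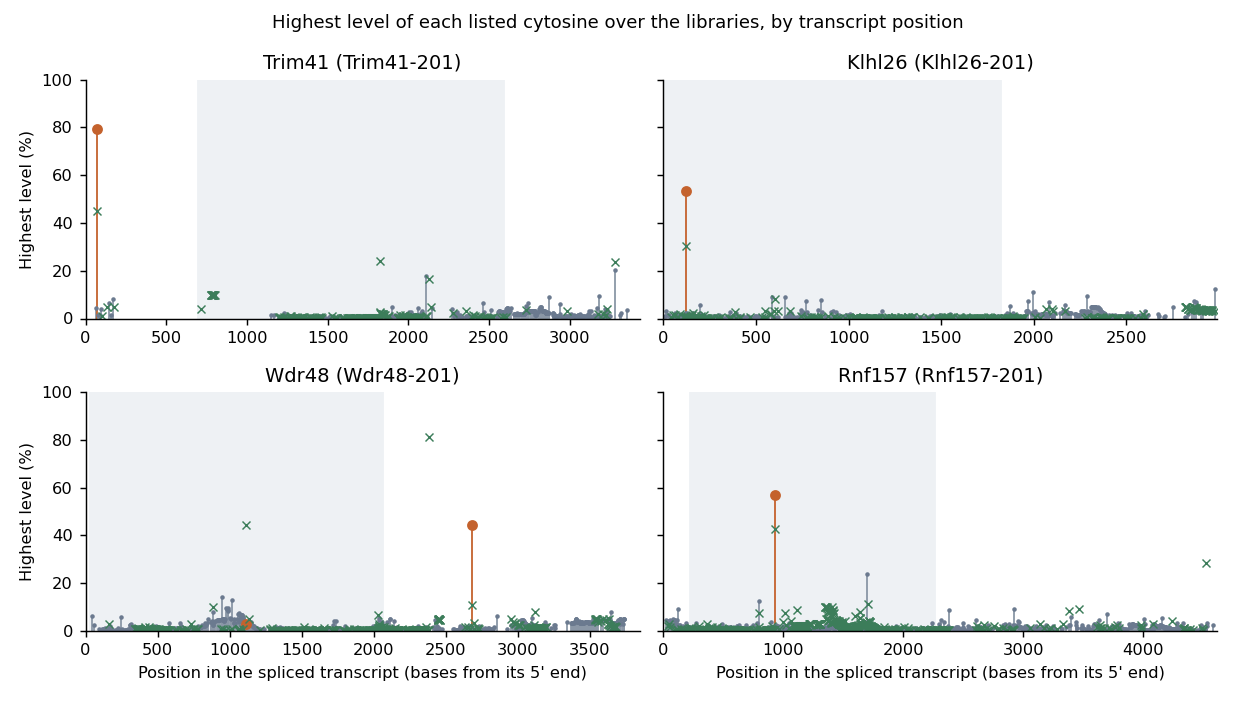
Highest methylation level (%) of each listed cytosine against its position in the spliced transcript (bases), for the 4 genes. Grey dots and lines give the highest level over the 10 libraries other than those labelled HF, orange marks the called sites, green crosses give the highest level in the libraries labelled HF, and shading marks the coding sequence. Apart from the orange sites and a few crosses, nearly all cytosines lie near the axis.

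The 4 sites called in most conditions share letters. Apart from CTCCA, the letters searched for were those found at the members, so the members' own counts are no test. All 4 begin CAG, counted from the methylated base, where 30.9% of 265 isolated sites called outside the libraries labelled HF did, these 4 included, and 11.9% of 772619 background cytosines (listed, at a level under 5%). Trim41, Klhl26 and Wdr48 went on to CAGG, found at 22.6% and 3.05% of these sets. Trim41 and Klhl26 held CNGGG, found at 21.9% and 1.77%, and Rnf157 continued as CAGA. None held CTCCA, found at 4.91% and 0.776%. CAGG is part of the CAG matches. With 5 sites in all, these counts are a description. The surroundings in the genome differed in composition, with 68.6% G and C in the 51 bases around the Trim41 site. It was 70.6% at Klhl26 and the Wdr48 3′UTR site, and 54.9% at Rnf157, where part of the stretch is intron.

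The Wdr48 coding site behaved unlike the other 4. It reached 44.4% of 54 reads and 25% of 32 reads in the 2 libraries labelled HF, at most 2.7% with a single unconverted read in pMF replicates 1 and 2 and pHF replicate 1, and was not listed in the other 7 libraries. Its letters differ too: the 4 bases before it are GGGG, a feature chosen after the sequences were seen. GGGG came just before 72.3% of the 2047 isolated sites called only in the libraries labelled HF. It came before 0 of the 265 isolated sites called elsewhere, which allows a share of up to 1.13%, and before 0.286% of background cytosines. The same letters precede positions in Trim41 and Wdr48 that were called only in the library labelled HF replicate 1, which include Trim41 chr11:48807705. They do not precede Klhl26 chr8:70475205 and Rnf157 chr11:116336445, called only in the library labelled HF replicate 2. The position with the highest level in each of Trim41 and Wdr48 is printed to show the run of G.
Trim41 chr11:48809065, 24.0% of 50 reads: aacaggggggCctgcggctac
Wdr48 chr9:119925127, 81.0% of 21 reads: atcagcggggCcacatcagtc

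The amount of each mRNA was estimated from coverage in 50-base windows listed in all 12 libraries, per 1000000 of such coverage, because the 4 genes held only 1 or 2 cytosines listed in every library. A cytosine is listed only with an unconverted read, so coverage here leans on positions that had one, and the part of this in the differences was not tested. Wdr48 mRNA was lower in polysome RNA, in which its 3′UTR site was higher. Its coverage was 3.87 and 4.34 (LF), 4.52 and 4.19 (MF), 3.86 and 4.81 (labelled HF), 2.28 and 3.3 (pLF), 2.58 and 2.85 (pMF), and 3.16 and 3.47 (pHF). All 6 polysome values were below all 6 total values, as was so for 17.9% of the 4634 genes tested. Polysome coverage was 0.684-fold of total, a log2 difference of -0.548 ± 0.0988 (SE, limma adjusted p = 0.00033), and it was lower in 5 of 6 windows. It also passed within low folate (-0.579, limma adjusted p = 0.0119) and medium folate (-0.683, limma adjusted p = 0.00481), though in low folate not without LF replicate 2 or pLF replicate 1, and it did not pass between pHF and the group labelled HF (-0.381, limma adjusted p = 0.0663).

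Klhl26 mRNA was lower in polysome RNA over the 3 doses. Its coverage was 2.71 and 2.56 (LF), 2.37 and 2.63 (MF), 3.93 and 3.77 (labelled HF), 3.34 and 1.6 (pLF), 1.94 and 1.89 (pMF), and 1.87 and 1.64 (pHF). The libraries labelled HF were the highest, and pLF replicate 1 stood above the other polysome libraries. Polysome coverage was 0.674-fold of total (log2 difference -0.569 ± 0.144, limma adjusted p = 0.00353) and lower in 6 of 6 windows, but without the libraries labelled HF and pHF the log2 difference was -0.285 (limma adjusted p = 0.224). Within low and medium folate it was -0.189 and -0.381, neither called (limma adjusted p = 0.53 and 0.202). By its own mRNA sequencing, the paper places Klhl26 among transcripts without a significant polysome change at each of the 3 doses.

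Trim41 coverage was highest in the libraries labelled HF. It was 3.79 and 3.5 (LF), 3.32 and 3.74 (MF), 10.6 and 9.07 (labelled HF), 6.27 and 3.66 (pLF), 4.02 and 4.18 (pMF), and 4.81 and 3.94 (pHF). Against MF the libraries labelled HF were 2.79-fold higher (log2 difference 1.48 ± 0.209, limma adjusted p = 0.00012), in 7 of 8 windows. The windows ranged from -0.149 to 3.21 in log2, and by their median the difference was 0.805 (limma adjusted p = 0.00685). Klhl26 was 1.54-fold higher there (limma adjusted p = 0.0492), with limma adjusted p up to 0.183 when 1 library was left out. Both genes were lower in pHF than in the group labelled HF, Trim41 by -1.17 (limma adjusted p = 0.000423) and Klhl26 by -1.14 (limma adjusted p = 0.00177). By the median of its windows the Trim41 difference was -0.312 and not called (limma adjusted p = 0.219). In the paper's own mRNA sequencing, few genes differed between HF and MF, and neither Trim41 nor Klhl26 is among those it names. What separates that measure from the bisulfite coverage used here was not tested.

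Rnf157 coverage did not pass in any comparison. It was 2.64 and 2.49 (LF), 2.49 and 2.39 (MF), 2.4 and 2.43 (labelled HF), 3.66 and 2.04 (pLF), 2.29 and 2.04 (pMF), and 1.99 and 1.43 (pHF). Total RNA lay between 2.39 and 2.64, and pLF replicate 1 was again the highest polysome library. Over folate the fraction difference was -0.201 ± 0.132 for Rnf157 (limma adjusted p = 0.182) and -0.187 ± 0.121 for Trim41 (limma adjusted p = 0.176). Without pLF replicate 1 both passed, at -0.342 for Rnf157 (limma adjusted p = 0.00358) and -0.316 for Trim41 (limma adjusted p = 0.00256). The Trim41 difference turned to 0.207 by the median of the windows and to 0.307 without the libraries labelled HF and pHF, neither called (limma adjusted p = 0.147 and 0.105).

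Most genes moved in these tables, so the members' calls are read against that. Of 4634 genes tested, 77.1% were called between polysome and total RNA over folate. By dose it was 62.1% in low, 62.9% in medium and 69.7% in high folate. Between the libraries labelled HF and MF 58.7% were called, where the paper's own mRNA sequencing found few genes. For folate elsewhere, 0.0% were called between LF and MF, 0.0% between pLF and pMF and 0.734% between pHF and pMF, with 45, 492 and 855 genes at an unadjusted limma p under 0.05. No member was called in those 3 comparisons. Wdr48 and Rnf157 were called in level between LF and MF by Fisher's exact test, but not with replicate error. Their coverage there differed by -0.0884 ± 0.171 and 0.0731 ± 0.229 in log2 (limma adjusted p = 1 each).

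**Figure D4:**
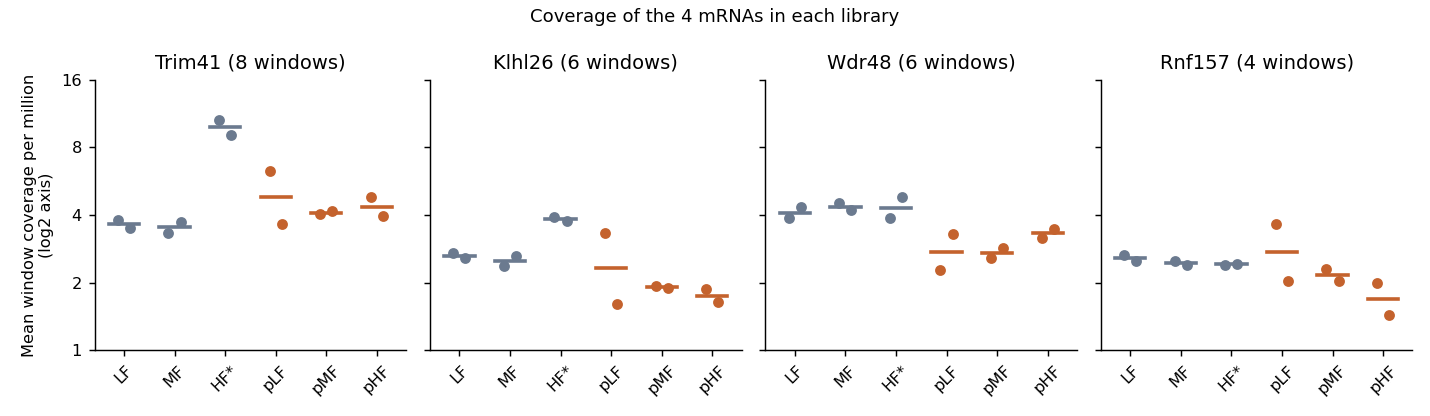
Coverage of the 4 mRNAs per 1000000 of window coverage (vertical log2 axis) in each library, by group. Points are libraries, grey for total and orange for polysome RNA, horizontal bars are geometric means of the 2 replicates, and HF* is the group labelled HF. Trim41 reaches 10.6 and 9.07 in the libraries labelled HF, and the 6 polysome points of Wdr48 lie below its 6 total points, an order found for 17.9% of genes.

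Other genes of the ubiquitin system were taken from a list of 110, of which 67 could be tested. Over folate, 19 were higher and 35 lower in polysome RNA, with a median log2 difference of -0.238, and over all 4634 genes 1914 were higher and 1660 lower, with a median of 0.04. Cullin complexes and Kelch or BTB adaptors, the group nearest to Klhl26, had 3 higher and 12 lower of 21. RING, TRIM, HECT and other ligases had 9 higher and 13 lower of 26, E1 and E2 enzymes 5 higher and 8 lower of 14, and deubiquitinases with their partners 2 each way of 6. The largest changes were in Klhl9, a cullin 3 adaptor (0.234-fold, log2 difference -2.1, limma adjusted p = 1.64e-09), Nedd4, a HECT ligase (0.297-fold, -1.75, limma adjusted p = 1.09e-08), and Ube2d3, an E2 enzyme (2.35-fold, 1.23, limma adjusted p = 3.1e-08).

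By single dose, 18 list genes were higher and 25 lower in pLF than in LF, 17 and 23 in pMF than in MF, and 16 and 29 in pHF than in the libraries labelled HF. Over all genes the same counts were 1611 and 1267, 1639 and 1274, and 1614 each way. Klhl9 and Nedd4 led in low folate, at 0.167-fold and 0.214-fold, with the E2 enzyme Ube2a at 2.67-fold. They led again in medium folate, at 0.228-fold and 0.267-fold, with the E2 enzyme Ube2k at 0.301-fold. In high folate the leaders were Skp1a, an adaptor of cullin 1 ligases (3.56-fold), Ube2d3 (3.52-fold) and Klhl7 (0.336-fold). Between the libraries labelled HF and MF, 19 were higher and 22 lower, with Ube2k (0.227-fold) and Skp1a (0.31-fold) among the largest changes. No list gene was called between LF and MF, pLF and pMF or pHF and pMF.

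Called sites in the rest of that list were in 22 of its 110 genes. Clustered sites, which have another called site within 25 bases, numbered 22, of which 8 were in the E2 gene Ube2r2 and 14 in the deubiquitinase gene Usp7, all called in LF, MF or polysome groups and none in the libraries labelled HF. Isolated sites numbered 25, in 21 genes. Of these, 20 sites in 16 genes were called only in the libraries labelled HF: Fbxo21, Kctd10, Klhl21, Klhl8, Mib1, Nedd4, Rnf126, Smurf1, Trim2, Trim28, Uba1, Ube2s, Ube2z, Ubr4, Usp7 and Wdr26. Over the series that held for 2047 of the 2312 isolated sites. The other 5 were in the cullin gene Cul5, called in the libraries labelled HF and in pHF (5.6% to 35.7% over 11 libraries), the ligase genes Rnf166, Rnf214 (LF, 6.42% to 52.3% over 8 libraries) and Znrf1 (LF, MF, the libraries labelled HF and pLF, 51.9% to 100% over 10 libraries), and the deubiquitinase gene Usp3 (LF and MF, 16.7% to 80.0% over 8 libraries). Rnf166 was the one covered in all 12 libraries, at 7.76% to 25.2%, and called in the libraries labelled HF and all 3 polysome groups. Its site is printed because it begins CAGG, as 3 of the sites above do.
Rnf166 chr8:122466976, minus strand: tgtcatcaagCaggaccacca

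The levels of the members were also set against those of the other isolated sites over the 12 libraries. Pearson's r was highest for Trim41 with Slc25a23 (0.812) and Creld1 (0.765), for Klhl26 with Nomo1 (0.898) and Sdc3 (0.881), for Wdr48 with Gm20518 (0.844) and Cotl1 (0.842), and for Rnf157 with Med24 (0.859) and Dele1 (0.83). The medians over all 197 or 198 sites compared were 0.29, 0.49, 0.373 and 0.367. The points share libraries, fractions and depth. Among the members, r was 0.702 for Trim41 and Wdr48, 0.581 for Trim41 and Klhl26, 0.557 for Klhl26 and Wdr48, 0.521 for Wdr48 and Rnf157, 0.24 for Klhl26 and Rnf157, and 0.178 for Trim41 and Rnf157.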

How the data were processed

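RNA bisulfite sequencing was read in 12 libraries, 2 biological replicates of each of 6 groups. Per the study's methods, the authors trimmed reads with fastp and aligned and called them with meRanTK on mm10, the study's code adds gene names with the same package, and R 4.1.1 is named in the submitters' processing notes. The deposited files list, for each cytosine called in state M, its coverage count, its counts of C, T and mutated reads, and its level as a fraction, before the authors' later filters on sites. The level was recomputed from the deposited counts. The sites called in the libraries labelled HF could not be matched to the site list the study gives for that group, so the group is named by its label only.

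Sites needed coverage of at least 20, 6 unconverted reads and a level of 10% in both replicates of a condition. Gene positions are from GRCm38 with GENCODE vM21, and the printed bases were read from the deposited context and matched the genome. Levels were compared by two-sided Fisher's exact test on pooled reads, adjusted by Benjamini-Hochberg over all sites of a comparison, and by limma 3.58.1 in R 4.3.3 on log2 odds with 0.5 reads added. Intervals on differences are 95% normal intervals of the pooled shares. With 2 against 2 libraries an exact permutation test cannot go below p = 0.333. The measure of gene coverage chosen at first, cytosines listed in all 12 libraries, could not be computed for these genes, so 50-base windows (at least 4 per gene) listed in all 12 were used, a change made after seeing the data. Listing needs an unconverted read, which ties coverage to level and depth. The tests were checked on simulated data. The genes named outside the 4 members are list genes with a called isolated site, the 3 largest called changes in coverage of each comparison, and the 2 sites with the highest Pearson r to each member site. The members and lists were chosen with earlier results of these data known. Replicate numbers were not used as pairs in the main tests, and the sample titles do not say whether same-numbered samples share a culture. Deviations of same-numbered samples correlated at -0.121 to 0.234 between groups, over 352 sites. With 2 replicates in each group and counting error in each level, this cannot exclude pairing. Alternatives were a beta-binomial test, limma for single comparisons, a replicate block, other limits on coverage, reads and level, other summaries of the windows, and leaving out each library. Python 3.11.15 was used throughout, and edgeR 4.0.16 for the scaling factors of 1 coverage alternative. Some items that these rules select are not reported here.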

Additional observations from a re-analysis of the deposited data

How the results depend on the processing

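Counts of called member sites depended on the test. Member sites tested were 3 between LF and MF, the libraries labelled HF and MF, pMF and MF and over folate, and 4 otherwise. Of all sites, limma called 0 of 1842 between LF and MF and 0 of 703 between pHF and pMF. It called 1034 of 1138 between the libraries labelled HF and MF, and 218 of 480 between pLF and LF. Between pMF and MF it called 108 of 403, and between pHF and HF 353 of 649. Between LF and MF the 2 calls became 0 by the beta-binomial test, 0 by limma and 0 by limma with the replicate block. Between the libraries labelled HF and MF the 2 calls became 1 by limma and 0 with the replicate block. At a level minimum of 20% Wdr48 left that table, and 1 of the 2 members tested was called. Between pHF and pMF the 1 call became 0 by the beta-binomial test, by limma and by limma with the replicate block. Between pLF and LF, and between pMF and MF, the 3 calls became 1 by limma and 1 with the replicate block, and between pHF and HF they became 1 with the block. For coverage, the 2 calls between the libraries labelled HF and MF became 1 with 2 windows a gene as the minimum, the 2 between pHF and HF became 4 with the replicate block, and the 2 over folate became 1 without the libraries labelled HF and pHF.

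Leaving out each library in turn gave 0 to 1 called sites between LF and MF, 1 to 3 between the libraries labelled HF and MF, 0 between pLF and pMF, 0 to 2 between pHF and pMF, 2 to 3 between pLF and LF, 2 between pMF and MF, 3 to 4 between pHF and HF, and 2 to 3 over folate. For coverage it gave 0 called genes between LF and MF and between pHF and pMF, 1 to 2 between the libraries labelled HF and MF, 0 to 3 between pLF and pMF, 0 to 4 between pLF and LF, 1 to 2 between pMF and MF, 2 to 4 between pHF and HF, and 2 to 4 over folate. The highest counts for pLF against pMF and against LF came without pLF replicate 2, and the highest over folate without pLF replicate 1. Shares over all sites or genes with a library left out are not given, so these counts are no result about the members.

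Signs turned where the main value was not called. With 1 library left out, the Rnf157 difference ranged from -9.71 to 1.64 points between the libraries labelled HF and MF, from -1.92 to 7.77 between pLF and pMF, from -15.9 to 0.814 between pHF and pMF and from -3.4 to 13.3 between pHF and HF. Between pLF and pMF it ranged from -9.36 to 14.6 for Klhl26 and from -4.3 to 3.22 for Wdr48. Between pLF and pMF the Wdr48 difference was -0.0458 in log2 odds by limma and with the replicate block. The Trim41 coverage difference over folate was 0.207 by the median of the windows and 0.307 without the libraries labelled HF and pHF. Other coverage differences that were not called also turned sign, the widest in comparisons with pLF: from -0.263 to 0.804 for Klhl26 between pLF and pMF, and between pLF and LF from -0.722 to 0.345 for Klhl26 and from -0.332 to 0.514 for Rnf157. Of the single-site and single-gene values counted under an alternative, 457 kept their direction and side of the threshold, 63 lost a call, 7 gained one and 13 turned sign. This count does not take in every coverage difference, and the turns with pLF given above lie outside it. The causes were not tested. At 20 reads, 1 read is 5 percentage points, and Trim41 with 17 reads in MF is the site least resolved.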
